A study of Mus musculus with 30 samples.

Results

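The matrix proteases of the Mmp and Adamts families and their inhibitors, the TIMPs, were described in mouse embryonic fibroblasts that carry different forms of the circadian repressor CRY2. The members were every gene of the deposited expression table whose symbol is Mmp, Adamts or Timp followed by its number, which gave 45 of 34724 genes: 23 Mmp, 18 Adamts and 4 Timp genes. All cells were primary Cry2-/- fibroblasts that stably overexpressed c-MYC. On that shared background the cells carried wild-type CRY2 (WT), one of its changed forms D325H, S510L and F428D, or, as the control without CRY2, an empty vector (EV). Each of the 5 constructs was plated at 150 cells per well (low density, collected after 14 days) or at 500 cells per well (high density, collected after 11 days), in 15% serum and 3% oxygen. This made 10 groups of 3 libraries, each from the combined cells of 2 wells. The labels call the 3 libraries biological replicates and do not say whether they came from separately derived cell lines. Nor do they say whether the libraries of a construct at both densities came from the same lines. The p-values therefore measure the spread between these libraries only.

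Matrix metalloproteinases (MMPs) and ADAMTS proteases are zinc enzymes that are made as inactive precursors and act outside the cell or at its surface. MMPs cut collagens, gelatin and many other matrix and surface proteins, and ADAMTS enzymes process procollagens, proteoglycans and microfibril proteins. TIMPs are small secreted proteins that sit in the active site of these enzymes and block it. Fibroblasts are a main source of all 3 families. CRY2 represses the clock's CLOCK and BMAL1 activators and also acts as a cofactor of a ubiquitin ligase. RNA levels of a protease gene say nothing of how much of the enzyme was activated.

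The unit was TPM, a relative transcript abundance that is corrected for transcript length, so levels can be set side by side between genes. The sum of TPM over the table was 960238 to 965790 in the 30 libraries, and 12182 to 12655 genes reached 1 TPM. Read counts per library were not used here. Cry2 itself lay between 3.82 and 5.55 TPM in the 6 EV libraries and between 13.2 and 160.9 TPM in the 24 CRY2 libraries. It was lower in S510L (13.2 to 39.5 TPM) than in WT (44.1 to 97.9 TPM), D325H (49.7 to 160.9 TPM) or F428D (58.5 to 125 TPM), so S510L values also go with less Cry2 RNA. Trp53 was 240.4 to 330.1 TPM in EV, WT and F428D apart from 1 F428D library at 214, and 15.4 to 131 TPM in D325H and S510L. Of 10 fibroblast markers 9 averaged at least 1 TPM, and their sum was 9517 to 16498 TPM. All 7 neutrophil markers averaged under 1 TPM, and of 7 macrophage markers found in the table only Cd68 averaged more. Chondrocyte markers were present throughout, with a sum of 213 to 5608 TPM that was highest in S510L at low density (4993 to 5608 TPM, against 360.0 to 777 TPM in WT).

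In some groups 1 library was the highest or lowest of its 3 for most of the 25 members tested, and in others the members were spread evenly. The second WT library at low density was the highest of its group for 16 members (and for 47% of all tested genes), the first F428D library at low density for 20 (48.1%), and the second D325H library at high density for 21 (37.3%). The third F428D library at low density was the lowest of its group for 16 (51%), and the third D325H library at low density for 15 (27.4%). In S510L at high density the 3 libraries were highest for 8, 9 and 8 members, and in WT at high density for 11, 9 and 5. The third D325H library at low density had the highest Trp53 of its group, 131 TPM against 15.4 and 17.7 TPM. The second D325H library at high density had the lowest, 32.6 TPM against 59.2 and 126 TPM. What part Trp53 has in these differences was not tested.

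A small set of members carried most of the RNA. Timp2 averaged 535 TPM over the 30 libraries, Mmp2 347, Timp1 323, Mmp14 148, Timp3 109, Mmp23 81.0 and Adamts1 77.6. These 7 genes made 88.7% to 96.6% of the summed TPM of all 45 members. Summed over each family, the 4 TIMPs reached 739 to 1463 TPM, the 23 Mmp genes 386 to 1152 TPM and the 18 Adamts genes 43.6 to 291 TPM. The Timp sum was above the Adamts sum in every group, with means of 783 ± 13.3 against 107 ± 15.2 TPM in EV at high density and 1182 ± 138 against 257 ± 39.7 TPM in D325H at low density (SD, n = 3). Mmp sums were lowest in S510L, at 514 ± 34.8 TPM (low density) and 458 ± 77.3 TPM (high density), against 712 ± 141 and 570.4 ± 10.5 TPM in WT.

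The members that reached 1 TPM in at least 3 libraries, 25 in all, were tested: Mmp2, 3, 11, 14, 15, 16, 19, 23 and 28, Adamts1, 2, 4, 5, 6, 7, 9, 10, 12, 14, 15, 16 and 17, and Timp1 to Timp3. The other 20 were not. Mmp9, gelatinase B, was the highest of these with 1.37 TPM in 1 S510L library at low density and a mean of 0.231 TPM. Mmp17, a membrane-anchored MMP, reached 0.791 TPM, the collagenase Mmp13 0.563 TPM, Mmp24 0.455 TPM, Mmp12 0.250 TPM and Mmp27 0.129 TPM. Mmp8, 10, 21 and 25 stayed at or under 0.0914 TPM. Mmp1a, Mmp1b, Mmp7 and Mmp20 were listed at 0 in all 30 libraries. Adamts3, 8, 13, 18 and 20 stayed at or under 0.350 TPM, and Timp4 at or under 0.293 TPM.

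**Figure D1:**
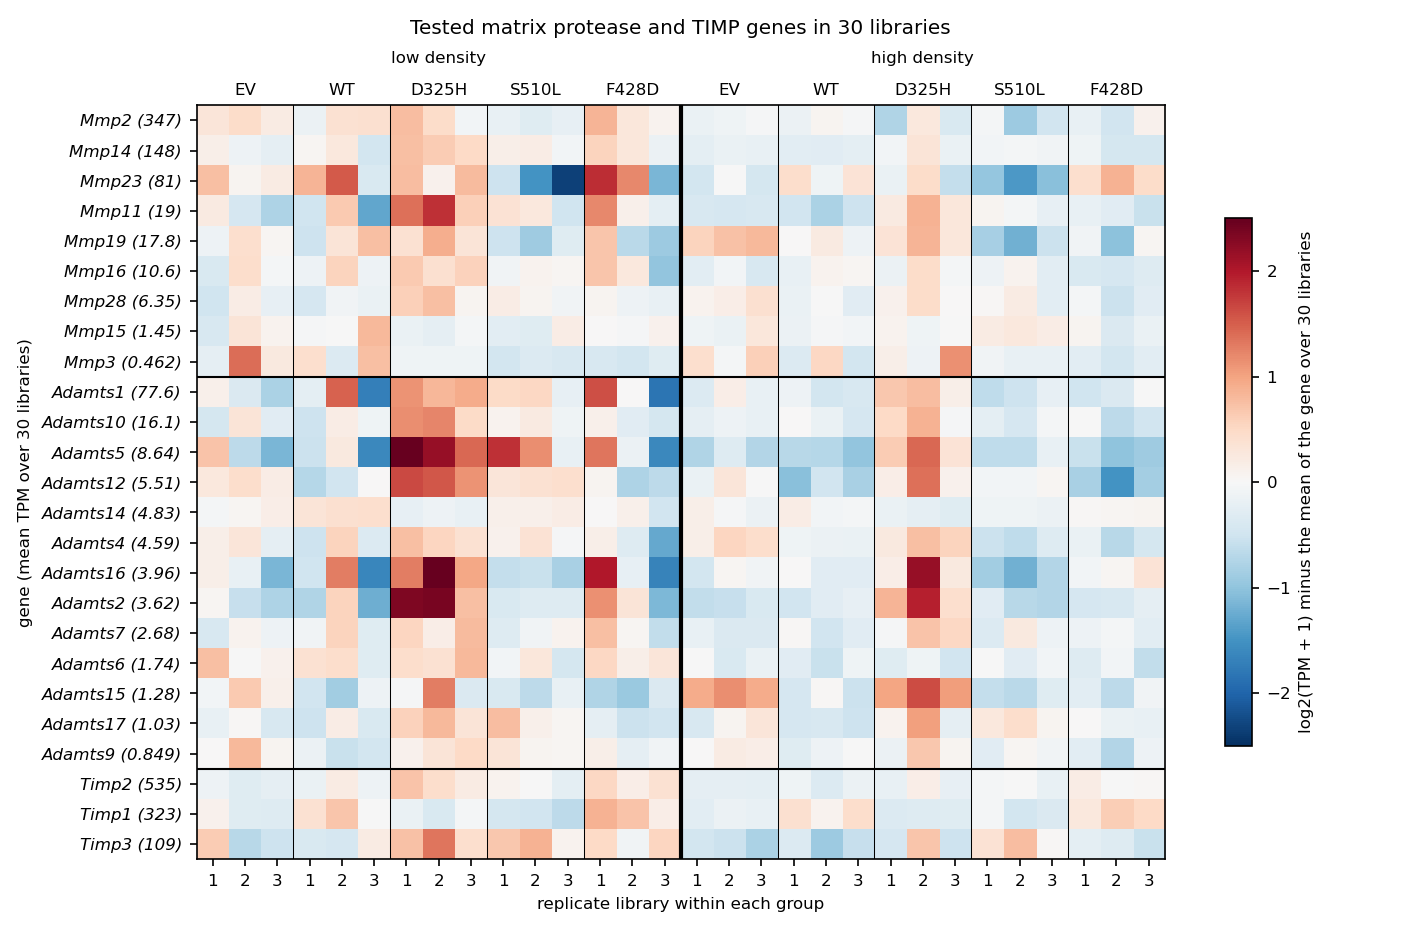
Level of each of the 25 tested members (rows, with the mean TPM in brackets) in each of the 30 libraries (columns, 3 per group), as log2(TPM + 1) minus the mean of that gene over all 30 libraries. The D325H columns at low density are the reddest block among the Adamts genes, Mmp23 and Mmp19 are blue in S510L, and single libraries such as the second D325H library at high density stand apart across many rows.

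The Mmp genes of 1 gene cluster differed from the other members in the base composition and motifs of their promoters. Of the 23 Mmp genes 10 lie side by side on mouse chromosome 9 (GRCm38, chr9:7272514-7699585, 427 kb) in the order Mmp13, Mmp12, Mmp1b, Mmp3, Mmp1a, Mmp10, Mmp8, Mmp27, Mmp20 and Mmp7. Of these only Mmp3, stromelysin-1, was tested, and its highest value was 2.63 TPM. Of the 13 Mmp genes elsewhere 8 were tested. RefSeq promoter windows (GRCm38.p6, 250 bases before to 50 after the start site) were found for 32 members, 35 windows in all. Those of the cluster held 37.67% to 52% G and C (median 41.67%, 12 windows), those of the other 22 members 53.33% to 80% (median 64.67%, 23 windows), and the median of all 32851 windows in the table was 52.67%. TGANTCA, the AP-1 site to which FOS and JUN proteins bind, was found on either strand in 8 of the 10 cluster genes (Mmp1a, 1b, 3, 7, 10, 12, 13 and 20) and in none of the other 22, against 7.81% of all windows. GGGCGG, the GC box, was in 0 of the 12 cluster windows and 18 of the 23 others, against 35.7% of all windows. CACGTG, the E-box that CLOCK, BMAL1 and MYC bind, was in 2 of the 35 windows (Adamts17 and Mmp7), against 7.15% of all windows. Split by level, the groups overlapped: the 15 tested members with a window held 40% to 77.33% G and C (median 64.17%), with a GC box in 12 and an AP-1 match in 1, and the 17 members not tested held 37.67% to 80% (median 46.67%), with a GC box in 6 and an AP-1 match in 7. These 3 motifs share no letters that would make one match count as another. A match is a run of letters and not a measured binding site.

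The promoters of 6 members show the contrast, 3 from the cluster and 3 from members that were expressed. Each is the 200 bases before the RefSeq start site, 5′ to 3′ on the strand of the gene in GRCm38.p6, with AP-1 (TGANTCA or its reverse complement) and GC box (GGGCGG or CCGCCC) matches in capitals.
Mmp13 (chr9:7272314-7272513, plus strand): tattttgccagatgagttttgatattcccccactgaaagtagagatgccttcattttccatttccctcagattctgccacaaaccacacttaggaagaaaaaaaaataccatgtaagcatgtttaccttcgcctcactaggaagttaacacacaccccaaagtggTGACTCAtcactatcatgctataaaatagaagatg
Mmp3 (chr9:7445622-7445821, plus strand): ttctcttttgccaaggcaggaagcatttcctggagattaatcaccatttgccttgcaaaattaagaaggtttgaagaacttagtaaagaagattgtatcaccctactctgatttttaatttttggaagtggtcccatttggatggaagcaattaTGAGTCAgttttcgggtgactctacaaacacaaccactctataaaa
Mmp10 (chr9:7502142-7502341, plus strand): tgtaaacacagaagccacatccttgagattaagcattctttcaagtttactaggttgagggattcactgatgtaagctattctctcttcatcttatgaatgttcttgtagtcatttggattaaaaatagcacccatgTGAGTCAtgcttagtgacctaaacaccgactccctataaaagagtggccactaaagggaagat
Mmp14 (chr14:54431398-54431597, plus strand): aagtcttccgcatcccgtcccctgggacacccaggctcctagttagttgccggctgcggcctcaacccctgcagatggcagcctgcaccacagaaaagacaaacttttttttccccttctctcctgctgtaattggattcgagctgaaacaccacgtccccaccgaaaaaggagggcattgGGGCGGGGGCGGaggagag
Mmp11 (chr10:75932503-75932702, minus strand): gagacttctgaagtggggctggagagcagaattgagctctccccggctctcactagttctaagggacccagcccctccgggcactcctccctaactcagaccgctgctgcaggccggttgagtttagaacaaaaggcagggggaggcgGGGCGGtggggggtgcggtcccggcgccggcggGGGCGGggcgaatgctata
Timp1 (chrX:20869966-20870165, plus strand): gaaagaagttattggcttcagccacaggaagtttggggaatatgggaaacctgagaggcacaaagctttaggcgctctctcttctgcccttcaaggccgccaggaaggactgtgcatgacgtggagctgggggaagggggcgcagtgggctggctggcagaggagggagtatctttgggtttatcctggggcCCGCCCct
The first 3 each hold 1 AP-1 match in the part of the window nearer the gene and no GC box, and the last 3 hold GC boxes and no AP-1 match. RNA of the JUN subunits of AP-1 was present: Jun averaged 64.5 TPM, Junb 109.7 TPM and Jund 224 TPM over the low-density libraries. Levels of the FOS genes are not given here, and whether AP-1 acted at these promoters was not tested.

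**Figure D2:**
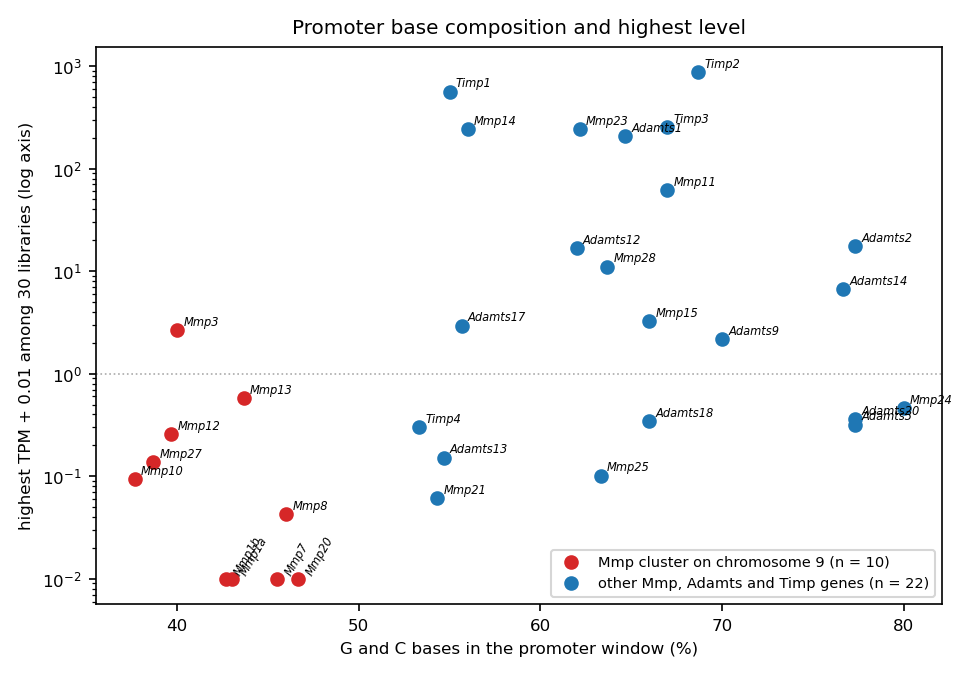
Share of G and C bases in the promoter window (x axis, %, the mean where a gene has several windows) against the highest TPM among 30 libraries plus 0.01 (y axis, log scale) for the 32 members with a window. The 10 genes of the chromosome 9 cluster lie at the left and, apart from Mmp3, under 1 TPM, while the other 22 lie to the right and on both sides of 1 TPM (dotted line).

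Nearly all of the enzymes matched the zinc-binding site of the metzincins in their coding sequence, and the TIMPs did not. A search of the GENCODE M21 coding sequences for 3 histidine codons and 1 glutamate codon at the spacing of this site, with a glycine or asparagine codon at its eighth position, found it once or more in 22 of 23 Mmp genes, 17 of 18 Adamts genes and 0 of 4 Timp genes. Mmp1a, typed as a polymorphic pseudogene in GENCODE M21, and Adamts8 were the enzyme genes without a match. Other codons at the eighth position were not searched, so a missing match does not show that the site is absent. The eighth codon was glycine in all 22 Mmp matches and in 12 Adamts genes, and asparagine in Adamts1, 4, 9, 15 and 20, which are proteoglycan-cutting enzymes. Adamts5, which also cuts proteoglycans, had glycine. The 11 codons are shown for 7 members that the results below turn on, 5′ to 3′, with the 5 fixed codons in capitals.
Mmp14, codons 239 to 249: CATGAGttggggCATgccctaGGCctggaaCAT
Mmp11, codons 219 to 229: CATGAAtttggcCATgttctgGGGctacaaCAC
Mmp23, codons 212 to 222: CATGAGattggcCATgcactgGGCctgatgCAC
Adamts2, codons 409 to 419: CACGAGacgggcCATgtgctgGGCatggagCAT
Adamts5, codons 410 to 420: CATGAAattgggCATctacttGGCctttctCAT
Adamts12, codons 396 to 406: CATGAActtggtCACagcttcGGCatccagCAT
Adamts15, codons 361 to 371: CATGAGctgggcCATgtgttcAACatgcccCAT
Adamts15 has AAC, an asparagine codon, where the other 6 have a GGC or GGG glycine codon.

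The main question of the design is how each changed CRY2 differs from wild-type CRY2. Differences are given on the log2(TPM + 1) scale, which understates the change of genes near 1 TPM, and folds are taken on that scale. Ranges in brackets after a difference are 95% confidence intervals. A call is a Benjamini-Hochberg adjusted p under 0.05 in limma over all 14093 genes tested. In D325H at low density 14 of the 25 tested members were called against WT, 12 higher and 2 lower, where 29.0% of all tested genes were called (14.8% higher and 14.1% lower). The 12 were Adamts2, 5, 9, 10, 12, 16 and 17, Mmp11, 14 and 28, and Timp2 and Timp3, and the 2 were Adamts14 and Timp1. The median difference of the 25 members was 0.68, against -0.00 over all tested genes, and 20 of the 25 lay above 0. At high density 3 members were called, Adamts12 and Adamts15 higher and Timp1 lower, where 10.2% of all genes were called. The median difference was 0.48 there, against 0.01 over all genes, and 21 of the 25 lay above 0. In bulk RNA, more RNA per cell and more cells of a type cannot be told apart. The summed fibroblast markers were also higher in D325H, at 13106 to 16498 TPM against 9517 to 11906 TPM in WT at low density and 12132 to 13803 against 11232 to 11851 TPM at high density, and Trp53 was lower. Sums of other marker lists also stood apart from WT with no overlap. At low density the 9 chondrocyte markers summed to 848 to 1547 TPM in D325H against 360.0 to 777 TPM in WT, the 7 osteoblast markers to 38.7 to 118 against 132 to 239 TPM, and the 8 endothelial markers, of which only Erg averaged 1 TPM or more, to 3.98 to 7.97 against 0.863 to 1.57 TPM. At high density the osteoblast sum was 45.5 to 87.5 against 132 to 179.6 TPM, the epithelial sum 1.30 to 5.36 against 11.7 to 23.4 TPM, the endothelial sum 2.43 to 4.66 against 0.799 to 1.35 TPM, the neutrophil sum 0.311 to 0.536 against 0 to 0.287 TPM, and the osteoclast sum, of which Ctsk alone averaged 1 TPM or more, 11.2 to 16.3 against 3.08 to 7.39 TPM. The part of these and of Trp53 in the member differences was not tested.

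Against WT, S510L gave fewer calls than D325H in the fit over all 10 groups. At low density 3 of the 25 were called against WT, Adamts12 higher and Mmp23 and Timp1 lower, where 23.3% of all genes were called. At high density only Timp1 was called, lower, where 9.17% of all genes were called. The median differences were 0.08 and -0.05, against 0.04 and 0.10 over all genes. Tested directly and averaged over both densities, D325H was above S510L for 13 members (Adamts2, 4, 5, 7, 10, 12, 15 and 16, Mmp11, 14, 19 and 23, and Timp2) and below it for 0, where 22.9% of all genes were called, 6.04% higher and 16.9% lower in D325H. S510L also had lower Trp53, less Cry2 RNA and higher summed fibroblast and chondrocyte markers than WT at both densities (fibroblast sum 13572 to 14572 TPM at low and 12554 to 13830 TPM at high density). Its endothelial sum was higher than in WT, at 4.94 to 12.2 and 8.53 to 10.7 TPM, and its osteoblast sum lower, at 58.7 to 61.0 and 55.4 to 79.9 TPM at low and high density, with no overlap. Their part was not tested.

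No member passed the test between F428D and wild-type CRY2. Limma called 0 members in F428D against WT at low density (2 at an unadjusted p under 0.05) and 0 at high density (0 unadjusted), where 0.0142% and 0.0639% of all genes were called. The unadjusted 2 were Adamts14, with a difference of -0.50 (95% confidence interval -0.76 to -0.24), and Timp2, with 0.39 (0.12 to 0.66). Wild-type CRY2 against the empty vector also gave 0 calls at low density (5 unadjusted) and 0 at high density (3 unadjusted), where 0.305% and 0.0284% of all genes were called.

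A further 4 comparisons, each against EV and averaged over both densities, were chosen after the data were seen. Against EV, WT had 2 called members (Timp1 higher, Adamts15 lower; 0.532% of all genes called) and F428D had 5 (Timp1 and Timp2 higher, Adamts4, 12 and 15 lower; 6.17%). D325H had 11, all higher (Adamts2, 5, 7, 10, 12, 16 and 17, Mmp11 and 14, Timp2 and 3; 25.3% called, 11.6% higher), and S510L had 4 (Timp3 higher, Adamts15, Mmp19 and Mmp23 lower; 18.7%). These comparisons share the 6 EV libraries, and with those against WT they share the libraries of the changed CRY2. All construct comparisons averaged over densities, including D325H against S510L, treat the 6 libraries of a construct as independent. If the same lines were plated at both densities, these intervals may be too narrow and these p-values too small.

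Each call at low density in D325H rests on a spread estimated over all 10 groups. With only the 6 libraries compared, 1 of the 14 calls was left, Adamts12, where calls over all genes fell from 29.0% to 1.75%. Leaving out single libraries gave 8 to 14 calls, with 8 without the first WT or the second D325H library. At high density the count was 1 to 6, with 1 without the second D325H library and 6 without the third. For S510L against WT, fitting only the 6 libraries compared called 8.39% and 20.2% of all genes, in place of 23.3% and 9.17%. Of the members it called 1 at low and 9 at high density, in place of 3 and 1. Without 1 library the counts were 2 to 3 at low density and 0 to 1 at high density, with 0 without the first or the third WT library and without the second or the third S510L library. D325H against S510L gave 8 to 14 calls without 1 library, with 8 without the first low-density or second high-density D325H library or the third low-density S510L library, and 8 with no filter on low values.

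**Figure D3:**
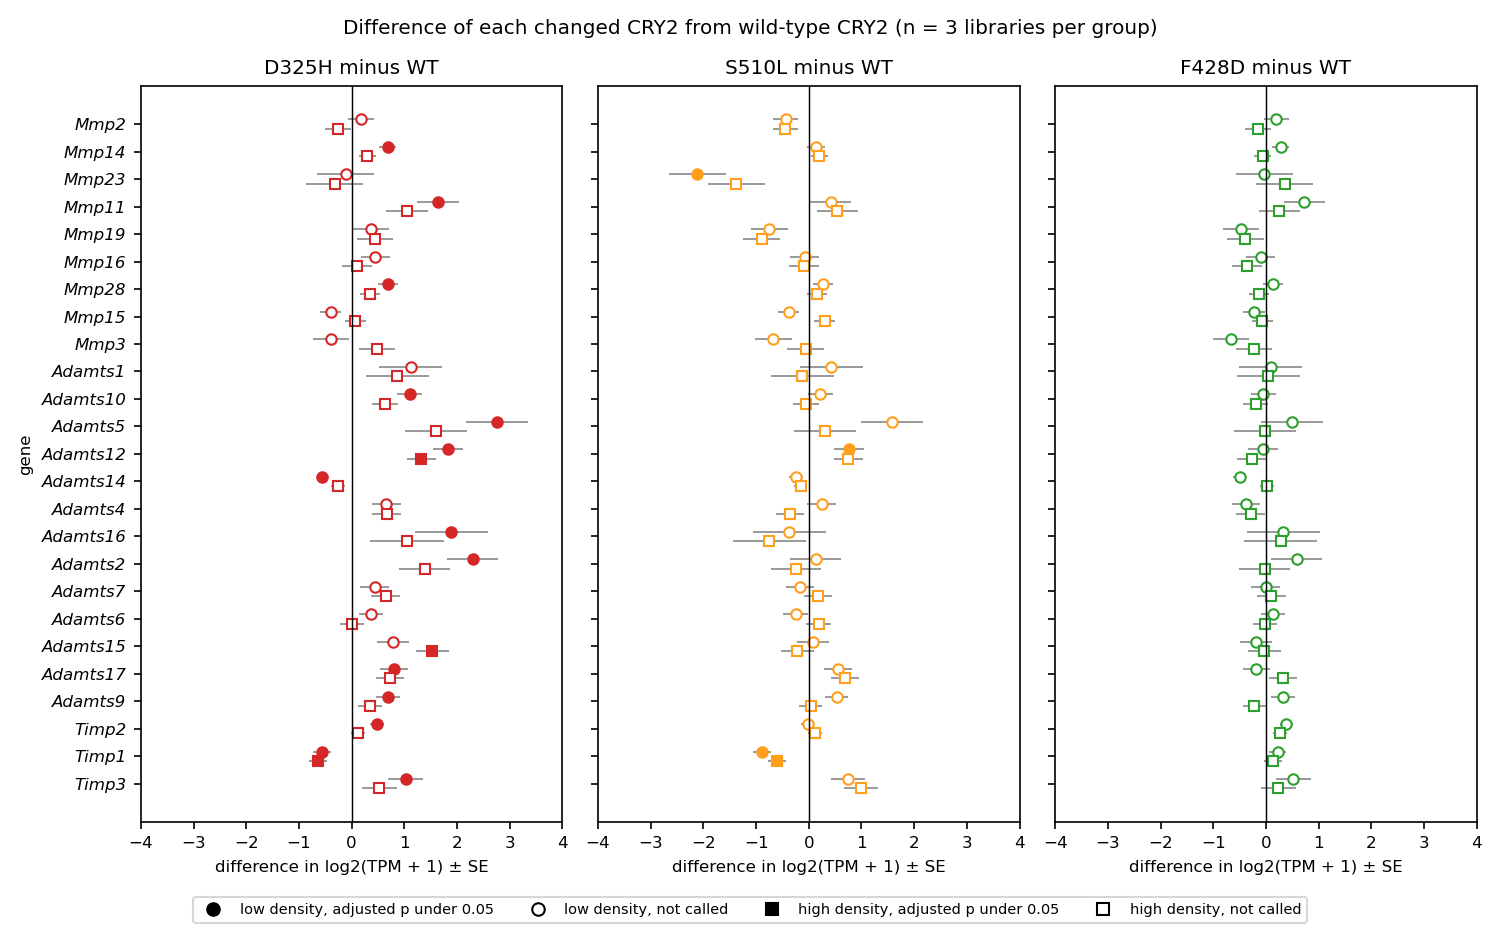
Difference of D325H, S510L and F428D from WT in log2(TPM + 1), with its SE, for the 25 tested members at low density (circles) and high density (squares), 3 libraries a group. Filled symbols passed the adjusted p of 0.05: 14 and 3 members in D325H, 3 and 1 in S510L and 0 in F428D, and the D325H symbols lie mostly to the right of 0 at both densities.

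Timp1, the soluble inhibitor that blocks most secreted MMPs but acts poorly on MMP14, was called in both D325H and S510L against WT at both densities. At low density it was 334, 249.8 and 249 TPM in EV, 404, 502 and 309 in WT, 277, 237 and 300.3 in D325H, 229.8, 221 and 196 in S510L and 563, 506 and 349 in F428D. The values at high density were 259, 279 and 273 TPM in EV, 409, 329.8 and 421 in WT, 246, 247 and 250.4 in D325H, 299.9, 225 and 241 in S510L and 372, 472 and 436 in F428D. At both densities every D325H and S510L library lay below every WT library, and the EV means, 278 and 270.3 TPM, stood beside D325H means of 271 and 248 TPM and WT means of 405 and 387 TPM. D325H against WT differed by -0.56 ± 0.17 (SE) at low density (adjusted p = 0.017) and -0.63 ± 0.17 (SE) at high density (adjusted p = 0.0207). S510L against WT differed by -0.88 ± 0.17 (SE) at low density (adjusted p = 0.000622) and -0.60 ± 0.17 (SE) at high density (adjusted p = 0.0278). F428D lay 1.62-fold (95% confidence interval 1.37 to 1.93) the level in EV (adjusted p = 0.00225), with no overlap of the 6 libraries of each, and WT 1.43-fold (95% confidence interval 1.21 to 1.70) the level in EV (adjusted p = 0.0493). The S510L call at low density held in all fits that left out 1 library. The D325H calls were lost in 3 of 6 such fits at low density (adjusted p up to 0.096) and 4 of 6 at high density (up to 0.093), the S510L call at high density in 4 of 6 (up to 0.138) and the WT call against EV in 9 of 12 (up to 0.165).

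Timp2, which both inhibits MMPs and bridges pro-MMP2 to MMP14 at the cell surface, was the most abundant member. At low density it was 482, 429 and 451 TPM in EV, 467, 608 and 484 in WT, 869, 711 and 603 in D325H, 562, 524 and 445 in S510L and 758, 593 and 688 in F428D. D325H and F428D were the high groups, and the lowest D325H library lay just under the highest WT library. D325H was 1.39-fold (95% confidence interval 1.16 to 1.68) the level in WT at low density (adjusted p = 0.00808), a call lost without the first WT or the first D325H library (adjusted p up to 0.0805). At high density the values were 448, 452 and 443 TPM in EV, 488, 415 and 475 in WT, 460.4, 593 and 457 in D325H, 507, 525 and 460.1 in S510L and 595, 520.0 and 538 in F428D, and the difference of D325H from WT was 0.12 (-0.14 to 0.39). Averaged over densities, D325H was 1.33-fold (95% confidence interval 1.17 to 1.52) the level in EV (adjusted p = 0.00265) and F428D 1.35-fold (95% confidence interval 1.19 to 1.54) the level in EV (adjusted p = 0.00776). The excess of D325H over S510L, 1.19-fold (95% confidence interval 1.05 to 1.36), passed at an adjusted p of 0.0462 and was lost in 8 of 12 fits that left out 1 library (adjusted p up to 0.162).

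The levels of Timp1 and Timp2 were also set against each other within each library, as a description. The Timp1 to Timp2 ratio of TPM was 0.777 ± 0.121 in WT, 0.383 ± 0.0996 in D325H and 0.424 ± 0.0166 in S510L at low density (SD, n = 3). At high density it was 0.840 ± 0.0464 in WT, 0.500 ± 0.0718 in D325H and 0.515 ± 0.0819 in S510L. EV lay between, at 0.609 ± 0.0747 and 0.604 ± 0.0222, and F428D was at 0.701 ± 0.176 and 0.781 ± 0.144. At both densities no D325H or S510L library reached the lowest WT ratio.

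Timp3, which binds to the matrix and also inhibits ADAM and ADAMTS proteases, was 156, 60.9 and 69.0 TPM in EV, 76.0, 74.2 and 114 in WT, 165, 252 and 133 in D325H, 159, 183 and 106 in S510L and 141, 93.6 and 146 in F428D at low density. All D325H libraries lay above all WT libraries, a difference of 1.02 ± 0.33 (SE, adjusted p = 0.0234), which was lost in 4 of 6 fits without 1 library (adjusted p up to 0.138). The high-density values were 71.8, 68.0 and 56.9 TPM in EV, 78.7, 52.9 and 66.2 in WT, 74.4, 161 and 69.3 in D325H, 128, 170.1 and 101 in S510L and 83.7, 79.5 and 67.7 in F428D. There S510L was the high group, with every library above every WT library, at a difference of 0.99 (0.31 to 1.68, adjusted p = 0.0606). Averaged over densities S510L was 1.82-fold (95% confidence interval 1.30 to 2.54) the level in EV (adjusted p = 0.011), a call that held without any 1 library. Timp3 lies inside Syn3, a gene on the other strand that averaged 0.212 TPM.

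Mmp14, the membrane-type collagenase that also activates pro-MMP2, was 159.6, 132 and 123 TPM in EV, 149, 173 and 104 in WT, 243, 225 and 205 in D325H, 159, 163 and 137 in S510L and 212, 175 and 130.2 in F428D at low density. The 3 D325H libraries lay above all WT libraries, 1.60-fold (95% confidence interval 1.27 to 2.03, adjusted p = 0.00367), and this held without any 1 library. The values at high density were 122, 128 and 127 TPM in EV, 120.0, 118 and 121 in WT, 138, 180.1 and 128 in D325H, 137, 139.6 and 136 in S510L and 133, 107 and 107 in F428D. D325H still lay above all WT libraries, but the difference of 0.30 (-0.04 to 0.63) was not called. Mmp14 in D325H was 1.38-fold (95% confidence interval 1.17 to 1.63) the level in EV over both densities (adjusted p = 0.00587). Its excess over S510L, 0.32, had an adjusted p of 0.0468 and was lost in 10 of 12 fits without 1 library (up to 0.152).

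Mmp2, the gelatinase that MMP14 and TIMP2 together activate, was abundant in every group and was called in no comparison of constructs. Its low-density values were 411, 459 and 385 TPM in EV, 302, 433 and 443 in WT, 569, 463 and 319 in D325H, 296, 269 and 290.3 in S510L and 604, 407 and 357 in F428D. The values at high density were 296, 309.5 and 329 TPM in EV, 303, 349 and 326 in WT, 198, 400.1 and 256 in D325H, 323, 178 and 238 in S510L and 294, 239 and 361 in F428D. S510L was the low group at low density. The interval of D325H minus WT was -0.32 to 0.68 at low and -0.76 to 0.25 at high density, and that of S510L minus WT -0.94 to 0.06 and -0.94 to 0.06.

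Mmp11, stromelysin-3, which furin activates inside the cell, was 19.6, 12.2 and 9.30 TPM in EV, 11.5, 27.0 and 6.19 in WT, 44.8, 61.3 and 25.6 in D325H, 21.5, 20.2 and 11.6 in S510L and 39.4, 18.2 and 13.9 in F428D at low density. WT spread widely, and its second library lay above the lowest D325H library. D325H was 3.12-fold (95% confidence interval 1.78 to 5.45) the level in WT (adjusted p = 0.00355), and the call held without any 1 library. At high density the values were 12.3, 12.3 and 12.3 TPM in EV, 11.7, 9.15 and 11.3 in WT, 19.5, 31.2 and 20.4 in D325H, 17.6, 16.1 and 14.3 in S510L and 14.5, 13.5 and 11.0 in F428D. D325H and S510L lay above all WT libraries there, with differences of 1.05 (0.25 to 1.86) and 0.54 (-0.27 to 1.35), neither of them called. Over both densities Mmp11 in D325H was 2.34-fold (95% confidence interval 1.57 to 3.47) the level in EV (adjusted p = 0.003) and 1.82-fold (95% confidence interval 1.23 to 2.71) the level in S510L (adjusted p = 0.0268, lost in 5 of 12 fits without 1 library). Its exons overlap those of Chchd10 on the other strand, which averaged 1.57 TPM. The strand of counting is not stated.

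Mmp23, an MMP anchored by its N-terminal end and released as a soluble enzyme, fell in S510L. It was 113, 70.4 and 77.7 TPM in EV, 121, 194 and 51.1 in WT, 115, 71.8 and 116 in D325H, 46.3, 23.2 and 12.4 in S510L and 243, 155 and 29.6 in F428D at low density. Every S510L library lay below every WT library, with a mean at 0.231-fold (95% confidence interval 0.106 to 0.501) the level in WT (adjusted p = 0.00656), and this held without any 1 library. The high-density values were 48.5, 66.0 and 49.0 TPM in EV, 90.8, 61.7 and 85.0 in WT, 59.3, 92.7 and 43.7 in D325H, 33.7, 24.1 and 31.7 in S510L and 89.9, 122 and 92.2 in F428D. S510L again lay below all WT libraries, and the difference of -1.37 (-2.49 to -0.25) was not called. Over both densities no S510L library reached any EV library, at 0.400-fold (95% confidence interval 0.231 to 0.692) the level in EV (adjusted p = 0.017, and 0.0503 without the third S510L library at low density). D325H was 2.88-fold (95% confidence interval 1.67 to 4.98) the level in S510L (adjusted p = 0.00668).

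Mmp19, an MMP of many tissues that cuts basement membrane proteins, also had its lowest means in S510L. It was 14.8, 22.1 and 17.0 TPM in EV, 11.0, 20.6 and 28.0 in WT, 21.5, 31.5 and 20.6 in D325H, 11.1, 8.39 and 13.0 in S510L and 27.1, 9.81 and 8.20 in F428D at low density. Its values at high density were 24.4, 27.8 and 29.4 TPM in EV, 16.4, 19.1 and 14.9 in WT, 20.8, 30.2 and 19.9 in D325H, 8.71, 6.56 and 10.8 in S510L and 15.2, 7.52 and 17.0 in F428D. No S510L library reached the lowest EV or the lowest D325H library over both densities. D325H was 2.34-fold (95% confidence interval 1.65 to 3.32) the level in S510L (adjusted p = 0.00127) and S510L was at 0.460-fold (95% confidence interval 0.324 to 0.653) the level in EV (adjusted p = 0.00218), both held without any 1 library. S510L minus WT was -0.75 (-1.46 to -0.03) at low and -0.89 (-1.61 to -0.18) at high density, not called. Mmp19 shares exon positions with Tmem198b on the other strand, which averaged 16.0 TPM, close to the 17.8 TPM of Mmp19.

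Of the 4 other tested Mmp genes, 1 was called. Mmp28, epilysin, rose in D325H at low density to 9.17 ± 2.35 TPM from 5.20 ± 0.758 TPM in WT (SD, n = 3), 1.62-fold (95% confidence interval 1.23 to 2.12, adjusted p = 0.00863, lost in 2 of 6 fits without 1 library). Its exons overlap 1700020L24Rik on the other strand, at 5.91 TPM on average against 6.35 for Mmp28. The membrane-type enzymes Mmp15 and Mmp16 averaged 1.45 and 10.6 TPM and were called in no comparison. Mmp16 in D325H minus WT had an interval of -0.13 to 1.03 at low density. Mmp3 averaged 0.462 TPM, was at 1 TPM or more in few libraries and was called in no comparison.

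**Figure D4:**
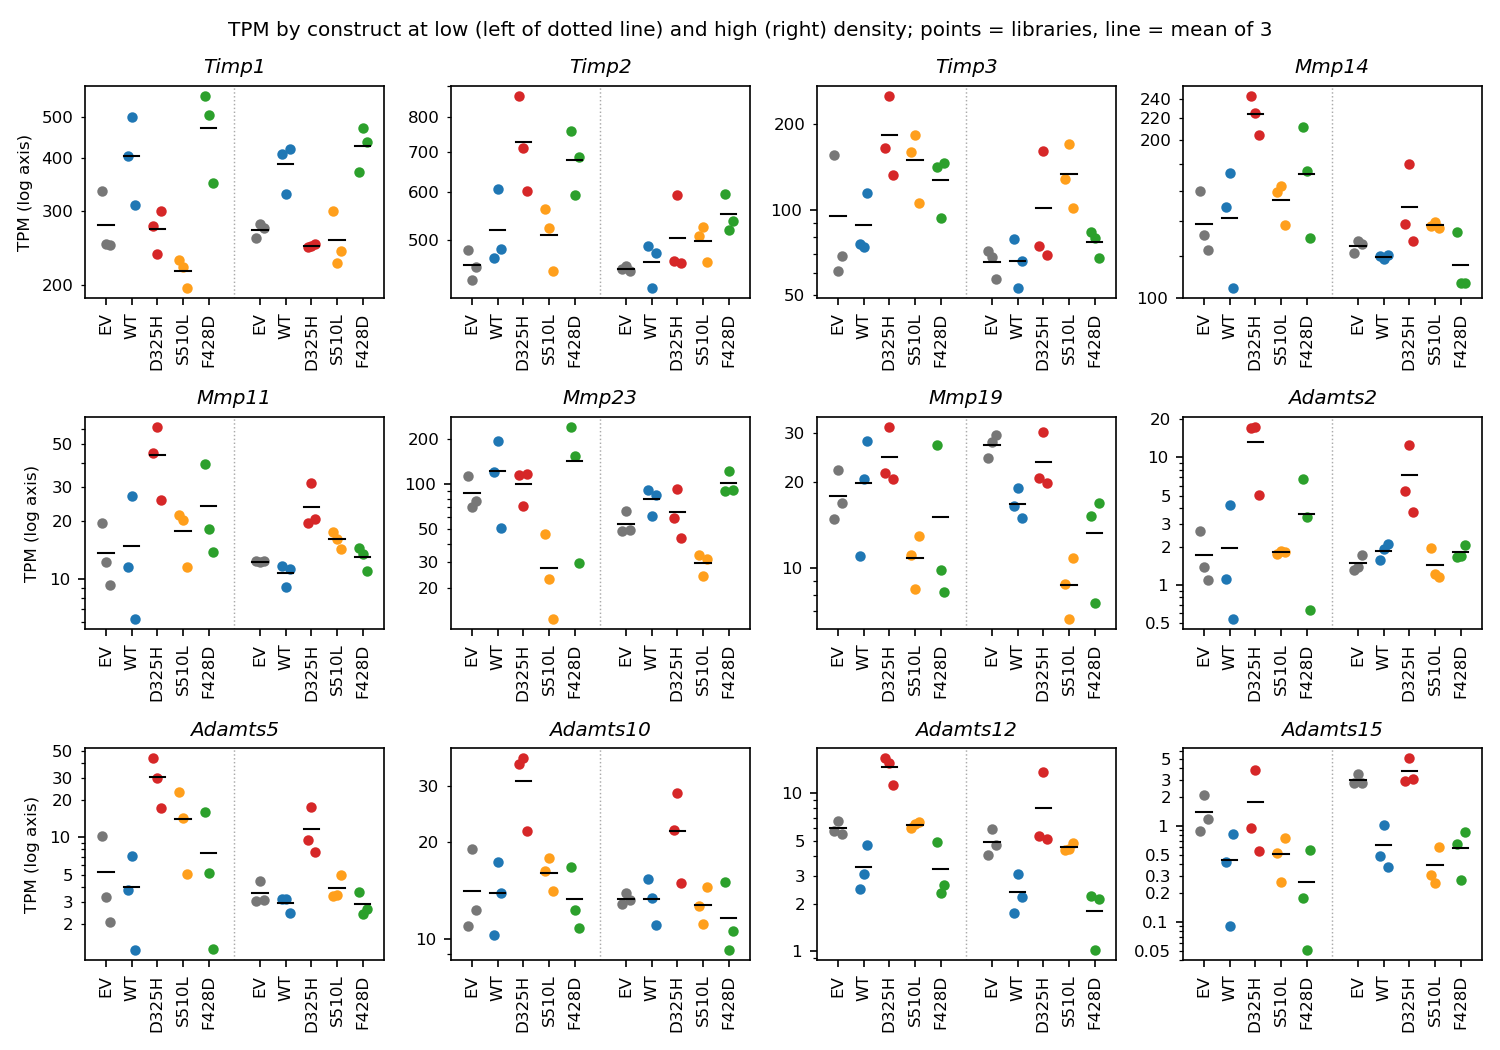
TPM (log axis) of 12 members in each of the 30 libraries, by construct, at low density (left of the dotted line) and high density (right), with the mean of 3 as a bar. Timp1 is lower in D325H and S510L than in WT at both densities, Mmp23 and Mmp19 are lowest in S510L, and the means of Adamts2, 5, 10 and 12 are highest in D325H.

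Among the procollagen N-proteinases, which trim fibrillar procollagens, Adamts2 and Adamts14 differed from WT in opposite directions in D325H at low density. Adamts2 was 2.67, 1.39 and 1.09 TPM in EV, 1.11, 4.23 and 0.538 in WT, 17.1, 17.4 and 5.03 in D325H, 1.75, 1.86 and 1.83 in S510L and 6.82, 3.44 and 0.640 in F428D at low density. The D325H libraries lay above all WT libraries, 4.92-fold (95% confidence interval 2.47 to 9.78, adjusted p = 0.00133). Its values at high density were 1.32, 1.39 and 1.73 TPM in EV, 1.57, 1.91 and 2.10 in WT, 5.42, 12.6 and 3.73 in D325H, 1.94, 1.21 and 1.15 in S510L and 1.66, 1.70 and 2.06 in F428D. Over both densities no D325H library overlapped the EV or the S510L libraries, at 3.80-fold (95% confidence interval 2.34 to 6.17) the level in EV (adjusted p = 0.000483) and 3.72-fold (95% confidence interval 2.29 to 6.05) the level in S510L (adjusted p = 0.000486). These 3 calls held without any 1 library. Adamts14 was 6.24, 6.64 and 6.72 TPM in WT and 3.98, 4.27 and 4.09 in D325H at low density, a narrow spread in both groups with no overlap, 0.679-fold (95% confidence interval 0.567 to 0.813, adjusted p = 0.00236), also held without any 1 library. WT was the high group of Adamts14 at low density, averaging 6.54 TPM against 5.01 in EV, 5.38 in S510L and 4.42 in F428D. Every WT library there also lay above every EV, S510L and F428D library, so a lower level than WT was not particular to D325H. Adamts3, the third procollagen N-proteinase, stayed at or under 0.309 TPM.

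Of the enzymes that cut aggrecan and versican, Adamts5, the main aggrecanase of mouse cartilage, showed the largest difference of the 25 members in the 6 comparisons with WT. It was 10.3, 3.32 and 2.09 TPM in EV, 3.73, 7.06 and 1.22 in WT, 44.2, 30.1 and 17.4 in D325H, 23.2, 14.3 and 5.04 in S510L and 16.2, 5.14 and 1.25 in F428D at low density. All D325H libraries lay above all WT libraries, 6.73-fold (95% confidence interval 2.90 to 15.6, adjusted p = 0.0016), held without any 1 library. S510L spread from near the WT values to above the lowest D325H value, with a difference from WT of 1.57 (0.36 to 2.79, adjusted p = 0.0554). The values at high density were 3.07, 4.44 and 3.10 TPM in EV, 3.20, 3.17 and 2.43 in WT, 9.63, 17.6 and 7.63 in D325H, 3.38, 3.42 and 4.98 in S510L and 3.62, 2.42 and 2.67 in F428D. D325H was again above all WT libraries, at 1.61 (0.39 to 2.82), not called. Over both densities D325H was 3.85-fold (95% confidence interval 2.12 to 6.98) the level in EV (adjusted p = 0.00205), and 2.36-fold (95% confidence interval 1.30 to 4.27) the level in S510L (adjusted p = 0.0353, lost in 6 of 12 fits without 1 library).

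Adamts15, another proteoglycan-cutting enzyme, had its own pattern at a low level. At low density it was 0.890, 2.12 and 1.18 TPM in EV, 0.424, 0.0908 and 0.818 in WT, 0.956, 3.82 and 0.543 in D325H, 0.520, 0.263 and 0.741 in S510L and 0.176, 0.0501 and 0.555 in F428D. Its values at high density were 2.78, 3.48 and 2.80 TPM in EV, 0.486, 1.03 and 0.373 in WT, 2.97, 5.16 and 3.12 in D325H, 0.311, 0.256 and 0.609 in S510L and 0.648, 0.271 and 0.861 in F428D. EV and D325H were the high groups at high density, and WT, S510L and F428D the low ones, with no overlap between these. D325H was 2.90-fold (95% confidence interval 1.86 to 4.52) the level in WT at high density (adjusted p = 0.00453) and 2.34-fold (95% confidence interval 1.71 to 3.21) the level in S510L over both (adjusted p = 0.000476). Against EV, S510L was at 0.469-fold (95% confidence interval 0.343 to 0.642, adjusted p = 0.00107) and F428D at 0.456-fold (95% confidence interval 0.333 to 0.625, adjusted p = 0.00473), all 4 held without any 1 library. WT was at 0.492-fold (95% confidence interval 0.359 to 0.673) the level in EV (adjusted p = 0.0337), lost in 8 of 12 such fits (up to 0.135), and D325H differed from EV by 0.14 (-0.32 to 0.59).

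Adamts1, 4 and 9 share this substrate group. Adamts1 was the most abundant Adamts gene and was called in no comparison: its values ranged from 18.3 to 207 TPM within F428D at low density and from 19.8 to 189 TPM within WT. D325H minus WT had an interval of -0.11 to 2.36 at low density. Adamts4 was 6.84 ± 1.00 TPM in D325H and 4.91 ± 0.845 in S510L at low density, and 6.69 ± 1.32 and 2.77 ± 0.416 at high density (SD, n = 3), 1.64-fold (95% confidence interval 1.24 to 2.17, adjusted p = 0.0109). It was lower in F428D than in EV, at 0.624-fold (95% confidence interval 0.473 to 0.824, adjusted p = 0.0373, lost in 7 of 12 fits without 1 library). The values of Adamts4 are uncertain if reads were assigned without strand. Adamts9 at low density was 1.25 ± 0.306 TPM in D325H against 0.393 ± 0.213 TPM in WT (adjusted p = 0.0232, lost in 4 of 6 fits without 1 library). WT was the low group there, with every library below every EV library. EV averaged 1.28 TPM, near D325H, and S510L 1.00 TPM.

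Adamts12 and Adamts7, which both cut cartilage oligomeric matrix protein (COMP), were higher in D325H than in EV. Adamts12 was 5.77, 6.69 and 5.48 TPM in EV, 2.48, 3.06 and 4.67 in WT, 16.8, 15.5 and 11.3 in D325H, 5.99, 6.41 and 6.56 in S510L and 4.93, 2.33 and 2.62 in F428D at low density. At high density it was 4.08, 5.94 and 4.66 TPM in EV, 1.75, 3.08 and 2.21 in WT, 5.31, 13.7 and 5.11 in D325H, 4.37, 4.43 and 4.86 in S510L and 2.24, 1.01 and 2.14 in F428D. By their means D325H was highest, EV and S510L lay in the middle, and WT and F428D were lowest, at both densities. D325H was 3.56-fold (95% confidence interval 2.39 to 5.29) the level in WT at low density (adjusted p = 9.76e-05), the one D325H call at this density that also passed when only the 6 libraries compared were fitted. At high density it was 2.50-fold (95% confidence interval 1.68 to 3.72) the level in WT (adjusted p = 0.0052, and 0.058 without the second D325H library). S510L was 1.70-fold (95% confidence interval 1.14 to 2.52) the level in WT at low density (adjusted p = 0.0484), lost in 5 of 6 fits without 1 library (up to 0.193). F428D was at 0.528-fold (95% confidence interval 0.399 to 0.699) the level in EV (adjusted p = 0.00844), and WT minus EV was -0.76 (-1.16 to -0.35, adjusted p = 0.0728). Adamts7 averaged 2.68 TPM and was 1.60-fold (95% confidence interval 1.21 to 2.11) the level in EV in D325H (adjusted p = 0.0135). It overlaps exons of Tbc1d2b on the other strand, at 20.7 TPM. Comp, their substrate, named after its values were seen, was itself higher in D325H than in WT by 3.36 ± 0.58 (SE) at low density (adjusted p = 0.000285) and in S510L by 4.59 ± 0.58 (SE, adjusted p = 6.95e-06). Comp was also called lower in WT than in EV at low density, so WT was a low reference for it.

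The microfibril-associated enzymes Adamts10, Adamts17 and Adamts6 and the fibronectin-cutting Adamts16 complete the family. Adamts10, altered in human Weill-Marchesani syndrome, was 11.0, 19.1 and 12.3 TPM in EV, 10.3, 17.3 and 13.9 in WT, 35.0, 36.7 and 21.6 in D325H, 16.3, 17.8 and 14.1 in S510L and 16.7, 12.3 and 10.8 in F428D at low density. D325H lay above all other low-density groups, 2.15-fold (95% confidence interval 1.52 to 3.04) the level in WT (adjusted p = 0.00192), held without any 1 library. At high density it was 12.8, 13.9 and 13.3 TPM in EV, 15.4, 13.4 and 11.0 in WT, 21.8, 28.5 and 14.9 in D325H, 12.7, 11.1 and 14.5 in S510L and 15.0, 9.22 and 10.6 in F428D, with a difference of D325H from WT of 0.64 (0.14 to 1.14). Over both densities D325H was 1.81-fold (95% confidence interval 1.42 to 2.31) the level in EV (adjusted p = 0.00123). Adamts17 in D325H was 1.90 ± 0.475 TPM against 0.681 ± 0.457 TPM in WT at low density (adjusted p = 0.0245, lost in 4 of 6 fits without 1 library). Adamts16 was 1.61, 7.96 and 0.188 TPM in WT and 7.96, 20.9 and 6.21 in D325H at low density, so the groups met, and its call (adjusted p = 0.0436) was lost in 4 of 6 such fits (up to 0.237). Over both densities no D325H library of Adamts16 overlapped S510L, with 11.7 ± 8.01 against 1.35 ± 0.228 TPM at low density and a difference of 2.03 ± 0.49 (SE, adjusted p = 0.00522). Adamts6 averaged 1.74 TPM and was called in no comparison of constructs.

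Plating density was the second axis of the design. High and low density differed in both cells per well and day of collection, and the part of each cannot be told apart. Averaged over the 5 constructs, 8 of the 25 members were called, 1 higher and 7 lower at high density, where 20.1% of all tested genes were called, 3.48% higher and 16.6% lower. The members' median difference was -0.21, against -0.06 over all genes. Mmp14 was 0.796-fold (95% confidence interval 0.717 to 0.884) its low-density level (adjusted p = 0.0034), Mmp2 0.738-fold (95% confidence interval 0.631 to 0.862, adjusted p = 0.00716) and Timp2 0.865-fold (95% confidence interval 0.797 to 0.940, adjusted p = 0.0141), so all 3 parts of the pro-MMP2 activation complex were lower at high density. Timp3 was 0.701-fold (95% confidence interval 0.567 to 0.866, adjusted p = 0.0176), Adamts6 0.707-fold (95% confidence interval 0.610 to 0.820, adjusted p = 0.00206) and Adamts12 0.705-fold (95% confidence interval 0.590 to 0.841, adjusted p = 0.00681). These 6 calls held in all 30 fits without 1 library. Adamts5, 0.589-fold (95% confidence interval 0.404 to 0.859, adjusted p = 0.0433), was lost in 21 of the 30, and Adamts15, 1.34-fold (95% confidence interval 1.10 to 1.64, adjusted p = 0.0344), in 13. The groups of all 8 overlapped between densities. The summed chondrocyte markers were also lower on average at high density in every construct, with means of 302 against 1621 TPM in EV, 457 against 626 TPM in WT, 328 against 1101 TPM in D325H, 2091 against 5311 TPM in S510L and 424 against 1249 TPM in F428D, and the libraries overlapped between densities in WT only. Their part in the density differences was not tested. Timp1 did not pass, with an interval of -0.17 to 0.14.

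Whether the construct differences themselves changed with density was tested jointly over the 4 contrasts with EV. Limma called 0 of the 25 members (0 at an unadjusted p under 0.05), where 0.0710% of all genes were called. The smallest unadjusted p among the members was 0.0592, for Timp2. So a D325H call at low density that did not pass at high density, as for Adamts2, Adamts5, Adamts10, Mmp11 and Mmp14, is not shown to differ between densities.

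**Figure D5:**
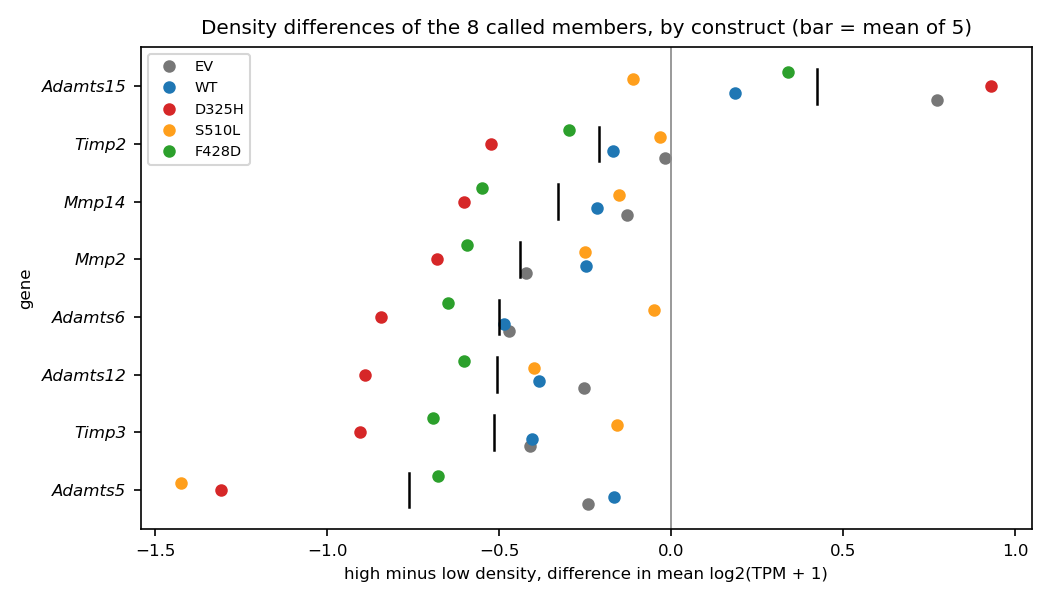
Difference between high and low density in mean log2(TPM + 1) for each construct (coloured points) and their mean (bar), for the 8 members called for density. Points of all 5 constructs lie left of 0 for the 7 members called lower, and for Adamts15 all but S510L lie right of 0.

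Other genes of the same system passed the test in both directions. Of 33 tested genes among other pericellular proteases and their regulators, 9 were higher and 6 lower in D325H than in WT at low density, where 14.8% of all genes were higher and 14.1% lower, so the lower count was near that of all genes. The median difference was 0.31, against -0.00 over all genes. Bsg (basigin, a surface glycoprotein known to induce MMPs) differed by 1.16 ± 0.17 (SE, adjusted p = 6.65e-05), and the secreted serine proteases Htra1 and Htra3 by 3.99 ± 0.69 (SE) and 1.85 ± 0.35 (SE, adjusted p = 0.000295 and 0.00054). In S510L at low density 3 were higher and 8 lower, where 15.0% of all genes were higher and 8.30% lower. Among them were Reck, a membrane-anchored MMP inhibitor, at 1.33 ± 0.24 (SE, adjusted p = 0.00029), and Adam10 at -0.43 ± 0.10 (SE, adjusted p = 0.00336). At high density 2 were higher and 2 lower in D325H, where 5.46% of all genes were higher and 4.73% lower, and 0 higher and 1 lower in S510L, where 7.39% were higher and 1.78% lower. In F428D 0 of 33 were called at either density.

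Of 22 matrix substrates tested, 17 were higher and 1 lower in D325H than in WT at low density, against 14.8% and 14.1% of all genes, with a median difference of 1.78. In S510L at low density 15 were higher and 2 lower, against 15.0% and 8.30% of all genes, with a median of 1.26. Both comparisons share the WT libraries, which were low for this list against EV, as given below. Col1a1 differed by 2.52 ± 0.36 (SE), Col4a2 by 1.98 ± 0.30 (SE) and Eln by 3.41 ± 0.56 (SE) in D325H (adjusted p = 6.60e-05, 9.55e-05 and 0.00019). In S510L the smallest p-values were those of the cartilage collagens Col2a1, at 2.98 ± 0.32 (SE), and Col9a1, at 7.38 ± 0.88 (SE, adjusted p = 1.18e-06 and 3.77e-06). Col2a1, Col9a1 and Acan are also chondrocyte markers, whose sum was highest in S510L. Col1a1, Col1a2, Col3a1 and Dcn are on both the substrate list and the fibroblast marker list, so those results are not separate observations. The part of cell makeup in the Adamts and Mmp differences was not tested. At high density 5 substrates were higher and 1 lower in D325H, where 5.46% of all genes were higher and 4.73% lower. The lower count was thus near that of all genes. In S510L 6 were higher and 0 lower, where 7.39% of all genes were higher and 1.78% lower. Across densities 15 of the 22 were lower and 0 higher at high density, against 16.6% and 3.48% of all genes, with a median of -0.58. WT against EV at low density had 0 higher and 3 lower (Col9a1, Comp and Acan), with a median of -0.50. There 0.291% of all genes were lower in WT. Averaged over densities, D325H had 11 higher and 2 lower than EV, against 11.6% and 13.7% of all genes, with a median of 0.72. S510L had 13 higher and 2 lower than EV, against 13.4% and 5.26% of all genes, with a median of 0.68.

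Of 23 tested transcription factors known at Mmp promoters, 4 were higher and 3 lower in D325H than in WT at low density, near the 14.8% and 14.1% of all genes, and 6 were higher and 4 lower in S510L, against 15.0% and 8.30%. Ets2 differed by 2.18 ± 0.28 (SE) in D325H and 1.53 ± 0.28 (SE) in S510L (adjusted p = 2.35e-05 and 0.000435), and Etv4 by -2.15 ± 0.36 (SE) in D325H (adjusted p = 0.000212). Runx1 differed by 1.70 ± 0.28 (SE) in S510L (adjusted p = 0.000139). Trp53 differed by -3.02 ± 0.52 (SE) in D325H and -2.52 ± 0.52 (SE) in S510L (adjusted p = 0.000287 and 0.00125). At high density 3 were higher and 2 lower in D325H, where 5.46% of all genes were higher and 4.73% lower. In S510L 2 were higher and 1 lower, where 7.39% of all genes were higher and 1.78% lower. The higher count in S510L was thus near that of all genes. In F428D against WT 0 of 23 were called at either density, and against EV, averaged over densities, the AP-1 genes Jun, Junb and Jund were higher, by 0.56 ± 0.12 (SE), 0.54 ± 0.13 (SE) and 0.59 ± 0.15 (SE, adjusted p = 0.01, 0.0141 and 0.0211).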

How the data were processed

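RNA of 30 libraries was sequenced on a BGISEQ-500 (single-end, 50 bases), per the labels' protocols. The authors deposited 1 table of TPM per gene symbol. The submitters' processing notes name kallisto, without a version, and GRCh37.p13, a human build, although the symbols are of mouse genes; which transcripts were quantified is not given in the sources used here, nor whether strand was used. All 30 columns were used, and 0 were left out. From the TPM, log2(TPM + 1) was computed for 14093 genes with at least 1 TPM in at least 3 libraries and fitted with limma 3.58.1 in R 4.3.3: 1 mean per group, all 30 libraries, an intensity trend in the prior variance, Benjamini-Hochberg adjustment over all genes tested. The fit was checked on simulated data. The members, the gene lists and the rules for naming genes were chosen with earlier results of these data known, and 4 comparisons against EV were added after the data were seen. Named genes are members that were called or averaged at least 20 TPM, in full or by group means, and the 3 smallest p-values of a list and comparison. Alternatives were a pseudocount of 0.1, no filter, quantile normalization, a replicate block, only the groups compared, and each library left out. Read depth per library is unknown from TPM. Promoters came from RefSeq (GRCm38.p6) and coding sequences from GENCODE M21.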

Additional observations from a re-analysis of the deposited data

How the results depend on the processing

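No member difference that was called changed its sign under any alternative run. Of the 64 calls of members in the 14 comparisons, 56 were kept with a pseudocount of 0.1, 49 without the filter on low values, 61 with quantile normalization and 62 with the replicate block. Fitting only the groups compared bears on 56 of these calls, since the density comparison uses all groups, and kept 35. Counts of called members moved by over 1.5 times in these cases. With only the groups compared, D325H against WT went from 14 to 1 at low density and from 3 to 6 at high density. S510L against WT went from 3 to 1 and from 1 to 9. These fits use 6 libraries in place of 30. Over all genes D325H went from 29.0% to 1.75% and from 10.2% to 11.2%, and S510L from 23.3% to 8.39% and from 9.17% to 20.2%. Without the filter, S510L against WT at high density went from 1 to 0, D325H against S510L from 13 to 8 and WT against EV averaged over densities from 2 to 0, with 26437 genes tested in place of 14093. Quantile normalization gave 5 in D325H against WT at high density. Leaving out each library gave 8 to 14 calls for D325H against WT at low density and 1 to 6 at high density, 2 to 3 and 0 to 1 for S510L against WT, 8 to 14 for D325H against S510L, and 6 to 10 for density. Against EV it gave 0 to 3 for WT, 8 to 12 for D325H, 3 to 5 for S510L and 4 to 6 for F428D. It gave 0 to 0 for WT against EV and F428D against WT at each density and for the joint test. Taken over all groups together, replicate numbers did not pair the libraries. Same-numbered libraries of different groups had a median correlation of deviations of 0.00833 (highest 0.483), and 26 of 135 such pairs passed 0.1. Of the 30 libraries 8 correlated best with their own number. Whether libraries of the same construct and number were paired between the densities was not tested separately. The replicate block gave 6 in place of 3 for D325H against WT at high density. The causes of these shifts were not tested. TPM keep no read depth, so how far counting error limits Adamts15, Adamts9, Adamts17 and Mmp3, all near 1 TPM, is unknown.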
